A study of Mus musculus with 9 samples.

Results

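The genes described here encode factors that act on RNA polymerase II after initiation, with the kinase P-TEFb at their centre. They are Supt5, Supt6, Cdk9, Ccnt1, Ccnt2, Hexim1, Larp7, Paf1, Ctr9 and Leo1, 10 of the 24318 genes in each deposited table, and their rows were found by gene symbol, with no threshold on any value. The cells were N2A, a line from a mouse neuroblastoma, that had received a scramble control siRNA, EXOSC3 siRNA (siEXOSC3) or DDX1 siRNA (siDDX1). Each of the 3 groups held 3 libraries of rRNA-depleted total RNA, 9 in all, prepared from separately seeded plates. EXOSC3 is a structural subunit of the RNA exosome and DDX1 is a putative RNA helicase, and the RNA-seq experiment asked which transcripts depend on either protein. All groups were the same wild-type line with no other treatment and differed only in the siRNA, so the model is a transient depletion in 1 tumour-derived line. Which of the EXOSC3 siRNAs was used for sequencing is not given in the sources used here.

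RNA polymerase II commonly pauses shortly after it starts a gene. DSIF, whose large subunit is encoded by Supt5, and NELF hold the paused polymerase. P-TEFb, made of the kinase CDK9 and cyclin T1 or cyclin T2, phosphorylates these factors and the polymerase tail and so releases it. Part of the P-TEFb in a cell is kept inactive in the 7SK snRNP, in which HEXIM1 inhibits the kinase and LARP7 binds and stabilizes the 7SK RNA. The PAF1 complex, with PAF1, CTR9 and LEO1 among its subunits, and SPT6, encoded by Supt6, travel with the elongating polymerase.

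Values are FPKM, fragments normalized for transcript length and library size, so that levels of different genes may be set side by side. Each knockdown was compared with the scramble libraries of its own table, because the tables were scaled separately. The same scramble library differed between tables by a median factor between 1.0078 and 1.0119. Read numbers are not held in FPKM and the methods state only a target depth, so the number of reads behind each library is unknown, while the depth relative to scramble replicate 1, read from the smallest values, lay between 0.827 and 1.2. The targeted transcripts fell as labelled. Exosc3 was left at 15.5% ± 1.90 (SD, n = 3) of scramble in siEXOSC3 cells, and Ddx1 at 24.4% ± 2.99 (SD, n = 3) in siDDX1 cells. All 7 neuroblast and neuron marker genes examined were above 1 FPKM in every library, and of 9 markers of other cell types 6 were under 1 FPKM in every library, with Ptprc, Aqp4 and Epcam listed at or near 0. The summed FPKM of the 7 neural markers was between 970 and 1043 in siEXOSC3 libraries, against 692 to 699 in scramble of that table, and between 699 and 848 in siDDX1 libraries, against 686 to 693. That of the 9 other markers was between 9.01 and 12.7 against 6.85 to 8.33, and between 7.88 and 8.69 against 6.80 to 8.23. Of the 3 above 1 FPKM in some library, the endothelial marker Pecam1 had a mean of 7.28 FPKM in siEXOSC3 against 4.13 FPKM in scramble and 5.25 against 4.09 FPKM in siDDX1, while the means of Cd68 and Mbp were lower than in scramble in both knockdowns. The part of these markers in the results was not tested, and in bulk RNA fewer cells of a type and less RNA per cell cannot be told apart.

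In scramble cells all 10 genes were expressed, and all passed the filter of a mean of at least 1 FPKM over the 6 libraries of a table. Their levels spanned a 2.86-fold range. Supt5, at 42.8 ± 1.79 FPKM (SD, n = 3), and Larp7, at 42.5 ± 1.23 FPKM (SD, n = 3), were highest and overlapped with each other. Supt6 followed at 39.3 ± 1.03 FPKM (SD, n = 3). Ccnt1 (36.9 ± 0.474 FPKM) and Paf1 (36.6 ± 0.456 FPKM) came next and again overlapped (SD, n = 3 for both). Below them lay Leo1 at 28.6 ± 0.812 FPKM (SD, n = 3), Ctr9 at 23.1 ± 1.36 FPKM (SD, n = 3) and Hexim1 at 18.0 ± 1.12 FPKM (SD, n = 3). Ccnt2 stood at 16.7 ± 0.710 FPKM and the kinase subunit Cdk9 was the lowest member at 15.0 ± 0.152 FPKM (SD, n = 3 for both). Every other pair of neighbours in this order had 3 scramble values that did not overlap. The median of all tested genes in the same libraries was 14.1 FPKM, so that all members lay above it. These levels are those of the table that holds siEXOSC3, and the order in the siDDX1 table was identical.

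**Figure D1:**
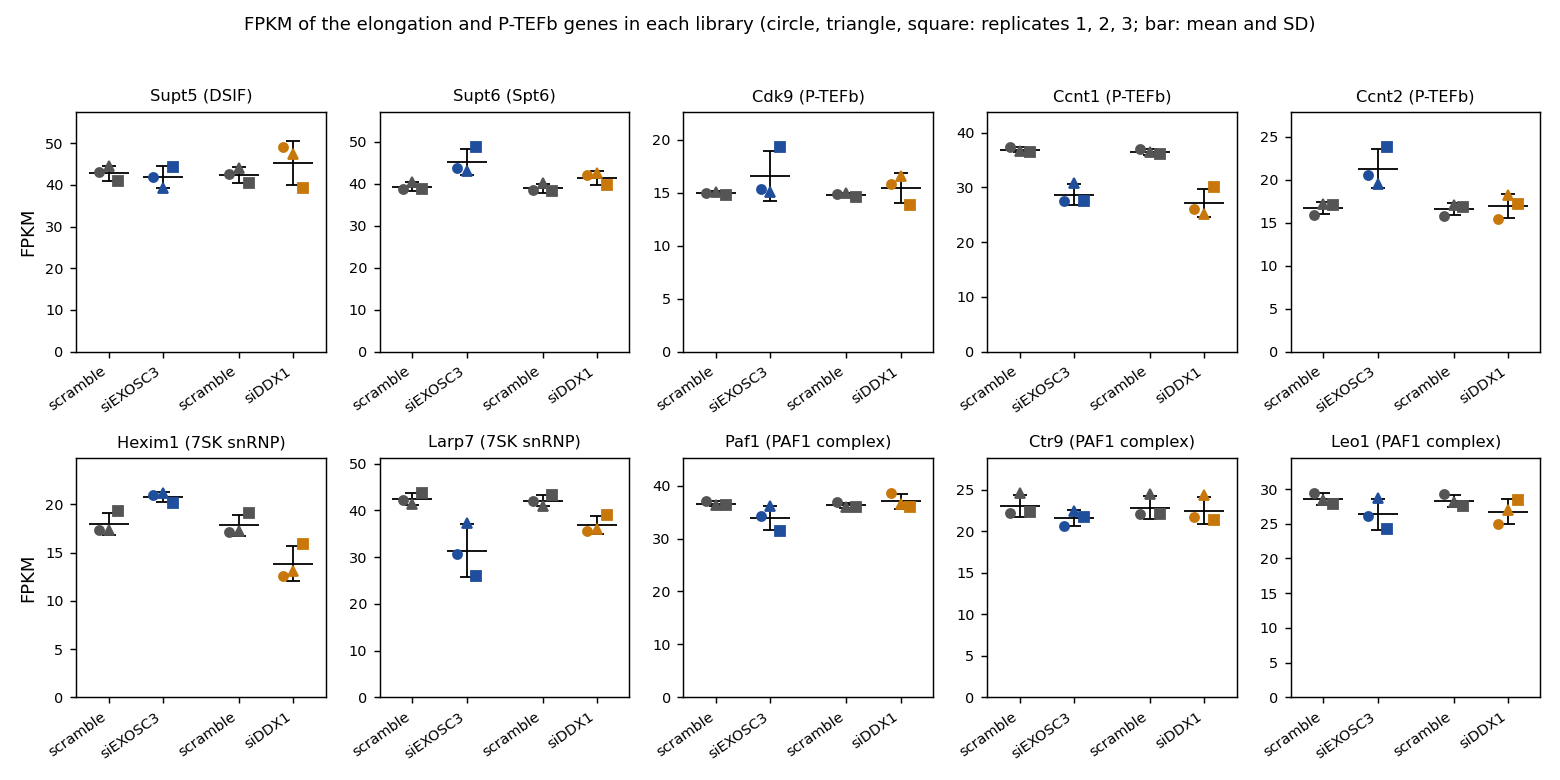
FPKM (vertical axes, from 0) of each of the 10 genes in every library, with the 3 scramble libraries shown once for each table because the tables were scaled separately. Circles, triangles and squares are replicates 1, 2 and 3, and bars give the mean and SD of 3 libraries; Ccnt1 lies below scramble in both knockdowns, while Hexim1 lies above it in siEXOSC3 and below it in siDDX1.

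The comparison of siEXOSC3 with scramble asked how these transcripts respond to loss of an exosome subunit. A limma adjusted p-value under 0.05 over all genes tested was the threshold. Ccnt1 and Larp7 decreased and Ccnt2 increased, and the other 7 members did not pass. In the same fit 32.4% of all 11242 genes tested passed, 16.7% as increased and 15.7% as decreased, so the share of members that passed, 30.0%, was near the background. The median log2 fold change was -0.061 over the members and -0.014 over all genes. In siDDX1 cells Ccnt1 was the only member past the threshold, and it decreased. There 10.6% of 11104 genes passed, 5.61% as increased and 5.03% as decreased, against 10.0% of the members, and no member increased. Without adjustment, 3 members had p under 0.05 in siDDX1 cells (Ccnt1, Hexim1 and Larp7) and 5 in siEXOSC3 cells (these 3, Ccnt2 and Supt6). Of all genes tested, 30.1% and 45.4% did, so that these shares of members were near the background too. The comparisons share their scramble cells and libraries, and a chance value there enters both.

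Within P-TEFb, the mRNA of cyclin T1 fell in both knockdowns, that of cyclin T2 rose in siEXOSC3 cells and did not pass in siDDX1 cells, and that of the kinase passed in neither. Ccnt1, on chromosome 15 of NCBIM37 (mm9) from 98369120 to 98401354 on the minus strand, encodes cyclin T1, the cyclin found in most P-TEFb. Its values were 37.4, 36.7 and 36.5 FPKM in scramble and 27.6, 30.9 and 27.5 FPKM in siEXOSC3 replicates 1, 2 and 3. All siEXOSC3 libraries thus lay below all scramble libraries, at 77.7% ± 5.26 (SD, n = 3) of their mean. The log2 fold change, given here with its standard error (SE), was -0.36 (SE 0.0682, adjusted p = 0.00730 by limma). In siDDX1 cells Ccnt1 measured 26.1, 25.2 and 30.0 FPKM, against 37.1, 36.4 and 36.1 FPKM in scramble of that table. The groups were again apart, the mean was 74.2% ± 7.01 (SD, n = 3) relative to scramble, a log2 fold change of -0.42 (SE 0.0742, adjusted p = 0.0138 by limma). This change was larger in size than that of 92.3% of all genes tested in siDDX1 cells, and that in siEXOSC3 cells was larger than 75.8%. The call in siEXOSC3 cells held without any single library, with adjusted p-values between 0.00176 and 0.0410. In siDDX1 cells it was lost without scramble replicate 1 (adjusted p = 0.0782), scramble replicate 3 (0.0663) or siDDX1 replicate 2 (0.0569) and fell to 6.21e-04 without siDDX1 replicate 3. Of the 9157 exonic bases of Ccnt1, 695 (7.59%) overlap exons of 9330020H09Rik on the opposite strand. The libraries carry no strand, so reads of this overlap cannot be assigned, and 9330020H09Rik, at 3.49 FPKM in scramble, had a log2 fold change of 0.51 in siEXOSC3 cells (limma adjusted p = 0.0102) and -0.24 in siDDX1 cells (0.137).

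Ccnt2 encodes cyclin T2, the alternative partner of CDK9, and lies on chromosome 1 from 129670741 to 129704638 on the plus strand. It was at 15.9, 17.2 and 17.0 FPKM in scramble and rose to 20.5, 19.6 and 23.8 FPKM in siEXOSC3 libraries. Every siEXOSC3 value was above every scramble value, the mean was 127% ± 13.4 (SD, n = 3) relative to scramble, and the log2 fold change 0.33 (SE 0.0853, adjusted p = 0.0214 by limma). The call was lost without scramble replicate 1, 2 or 3 or without siEXOSC3 replicate 1, with adjusted p-values of 0.0911, 0.0528, 0.0618 and 0.0557. In siDDX1 cells the values of 15.4, 18.2 and 17.2 FPKM overlapped those of scramble, at 15.8, 17.1 and 16.8 FPKM. There the log2 fold change was 0.03, with a 95% confidence interval from -0.15 to 0.20. Cdk9, on chromosome 2 from 32561304 to 32568596 on the minus strand, encodes the kinase itself. It was at 15.0, 15.1 and 14.8 FPKM in scramble and at 15.4, 15.1 and 19.3 FPKM in siEXOSC3 libraries, of which replicate 3 stood above the rest. The log2 fold change of 0.13 had a 95% confidence interval from -0.09 to 0.35 (limma adjusted p = 0.317). In siDDX1 cells Cdk9 was at 15.8, 16.6 and 13.9 FPKM, on both sides of scramble, and its log2 fold change of 0.05 had an interval from -0.13 to 0.23.

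As the cyclins share a kinase, the ratio of Ccnt1 to Ccnt2 was taken within each library, where the library scaling cancels. It was 2.35, 2.13 and 2.14 in scramble, 1.34, 1.58 and 1.16 in siEXOSC3 and 1.69, 1.38 and 1.75 in siDDX1 libraries. All 6 knockdown libraries lay below all 3 scramble libraries, which serve both comparisons. The ratio is made from the Ccnt1 and Ccnt2 values given above and is not a separate finding. The mean log2 ratio fell by 0.71 in siEXOSC3 and by 0.46 in siDDX1 cells (two-sided exact permutation test, p = 0.1 for each, the smallest p that 3 against 3 allow). Without any single library the difference stayed between -0.82 and -0.60 in siEXOSC3 and between -0.53 and -0.36 in siDDX1 cells.

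The promoters of the cyclin genes are shown because these genes moved in opposite directions in siEXOSC3 cells. They are the 200 bases before the RefSeq start site on GRCm38.p6, 5′ to 3′, with motif matches on either strand in capitals, where adjoining or overlapping matches run together. The motifs searched were GGGCGG, known as the GC box, the CCAAT box, the ETS core with the letters CCGGAA, the TATA box with the letters TATAAA and the E-box with the letters CACGTG.
Ccnt1 (chr15:98567737-98567936, minus strand): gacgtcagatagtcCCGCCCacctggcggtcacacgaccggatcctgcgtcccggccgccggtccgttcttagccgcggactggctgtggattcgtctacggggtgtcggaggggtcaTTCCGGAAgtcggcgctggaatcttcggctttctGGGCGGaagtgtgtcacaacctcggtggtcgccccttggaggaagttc
Ccnt2 (chr1:127773964-127774163, plus strand): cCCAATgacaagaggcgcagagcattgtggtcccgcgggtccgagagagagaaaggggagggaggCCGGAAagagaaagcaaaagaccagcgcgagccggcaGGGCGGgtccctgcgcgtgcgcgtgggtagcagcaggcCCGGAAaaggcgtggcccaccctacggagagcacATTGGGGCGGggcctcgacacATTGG
Both windows hold GC boxes and ETS cores, and the Ccnt2 window also holds 3 CCAAT matches where that of Ccnt1 has none. Over the 9 members with an entry in the table, 8 windows held GGGCGG, 3 held CCAAT and 3 held CCGGAA. Of all 32851 windows of this length, 31.0%, 29.3% and 10.7% did. The exact letters TATAAA and CACGTG were found in 0 of the 9, and in 9.96% and 5.26% of all windows. Other forms of these motifs were not searched. The share of G and C was 64.5% for Ccnt1 and 66.5% for Ccnt2, against a median of 53.0% over all windows. These matches describe the sequence only.

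Of the 7SK snRNP genes, Larp7 decreased in siEXOSC3 cells, and neither Larp7 in siDDX1 cells nor Hexim1 in either knockdown passed the test. In siEXOSC3 cells Larp7 lay below and Hexim1 above all scramble libraries, and in siDDX1 cells both lay below them. Larp7, whose product protects the 7SK RNA, lies on chromosome 3 from 127239872 to 127256266 on the minus strand. It fell from 42.3, 41.3 and 43.8 FPKM in scramble to 30.7, 37.3 and 26.0 FPKM in siEXOSC3 libraries. The libraries of the groups did not overlap, although the siEXOSC3 values were spread widely, with a mean of 73.8% ± 13.3 (SD, n = 3) relative to scramble. The log2 fold change was -0.44 (SE 0.116, adjusted p = 0.0221 by limma), the largest in size among the members. The adjusted p-value was 0.0730, 0.0569, 0.0801 and 0.0708 without scramble replicate 1, 2 or 3 or siEXOSC3 replicate 1, 0.00125 without siEXOSC3 replicate 2, and 0.0533 with no filter on low FPKM. In siDDX1 cells Larp7 was at 35.7, 36.0 and 39.1 FPKM, below 42.0, 41.0 and 43.3 FPKM in scramble in every library. The log2 fold change of -0.18 had a 95% confidence interval from -0.32 to -0.04 and did not pass over all genes (limma adjusted p = 0.0864), although it did without siDDX1 replicate 3 (0.0162).

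Hexim1, a single-exon gene on chromosome 11 from 102977639 to 102981039 on the plus strand, encodes the inhibitor of P-TEFb. In scramble it was at 17.3, 17.4 and 19.3 FPKM, and in siEXOSC3 libraries at 21.0, 21.2 and 20.2 FPKM. Every siEXOSC3 value lay above every scramble value, at 116% ± 3.0 (SD, n = 3) of their mean. In siDDX1 cells the gene was instead at 12.5, 13.1 and 15.9 FPKM, below all scramble values of that table (17.2, 17.2 and 19.1 FPKM) and at 77.6% ± 10.2 (SD, n = 3) of their mean. The log2 fold changes were 0.20 (SE 0.0697, adjusted p = 0.0576 by limma) and -0.35 (SE 0.0957, adjusted p = 0.0536 by limma), and neither passed. The 95% confidence intervals, from 0.04 to 0.36 and from -0.57 to -0.13, did not include 0. The value in siEXOSC3 cells passed with quantile normalization (adjusted p = 0.0335) or median centring (0.0397), and that in siDDX1 cells without siDDX1 replicate 3 (0.00219) or with the replicate number as a block (0.0211). Of the neighbours within 5 kb, Acbd4 on the same strand had a log2 fold change of 0.62 in siEXOSC3 cells (limma adjusted p = 0.00897) and 0.12 in siDDX1 cells, and the annotation gives no shared exon.

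The promoters of both 7SK snRNP genes are printed in the same way, since Hexim1 was the member that lay above scramble in one knockdown and below it in the other.
Hexim1 (chr11:103116125-103116324, plus strand): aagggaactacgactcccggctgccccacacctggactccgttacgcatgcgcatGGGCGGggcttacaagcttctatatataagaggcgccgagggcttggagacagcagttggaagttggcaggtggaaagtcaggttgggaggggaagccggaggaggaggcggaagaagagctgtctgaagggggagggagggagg
Larp7 (chr3:127553350-127553549, minus strand): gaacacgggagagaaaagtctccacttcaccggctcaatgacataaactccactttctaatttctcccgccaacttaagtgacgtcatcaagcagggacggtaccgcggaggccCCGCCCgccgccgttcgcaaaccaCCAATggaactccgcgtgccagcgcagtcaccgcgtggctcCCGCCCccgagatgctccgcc
The Hexim1 window holds 1 GC box, and that of Larp7 holds 2 GC boxes and 1 CCAAT match. The Hexim1 window also holds the letters tatataag, which are close to TATAAA but no exact match and so are not marked.

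Ratios within a library set these genes against each other, and 12 comparisons of ratios were made in all, with p-values that are not adjusted. The ratio of Larp7 to Hexim1 was 2.44, 2.38 and 2.27 in scramble and dropped to 1.46, 1.76 and 1.29 in siEXOSC3 libraries. In siDDX1 libraries it was 2.85, 2.75 and 2.46, so that scramble lay between the knockdowns with no overlap on either side. The differences in mean log2 ratio were -0.66 and 0.18 (two-sided exact permutation test, p = 0.1 for each, the smallest possible). The ratio of the inhibitor to the kinase, Hexim1 to Cdk9, was 1.16, 1.149 and 1.30 in scramble. All siDDX1 libraries were lower, at 0.792, 0.788 and 1.147, replicate 3 by the smallest margin, a log2 difference of -0.42 (two-sided exact permutation test, p = 0.1). In siEXOSC3 libraries it was 1.37, 1.40 and 1.04 and overlapped scramble (two-sided exact permutation test, p = 0.8).

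**Figure D2:**
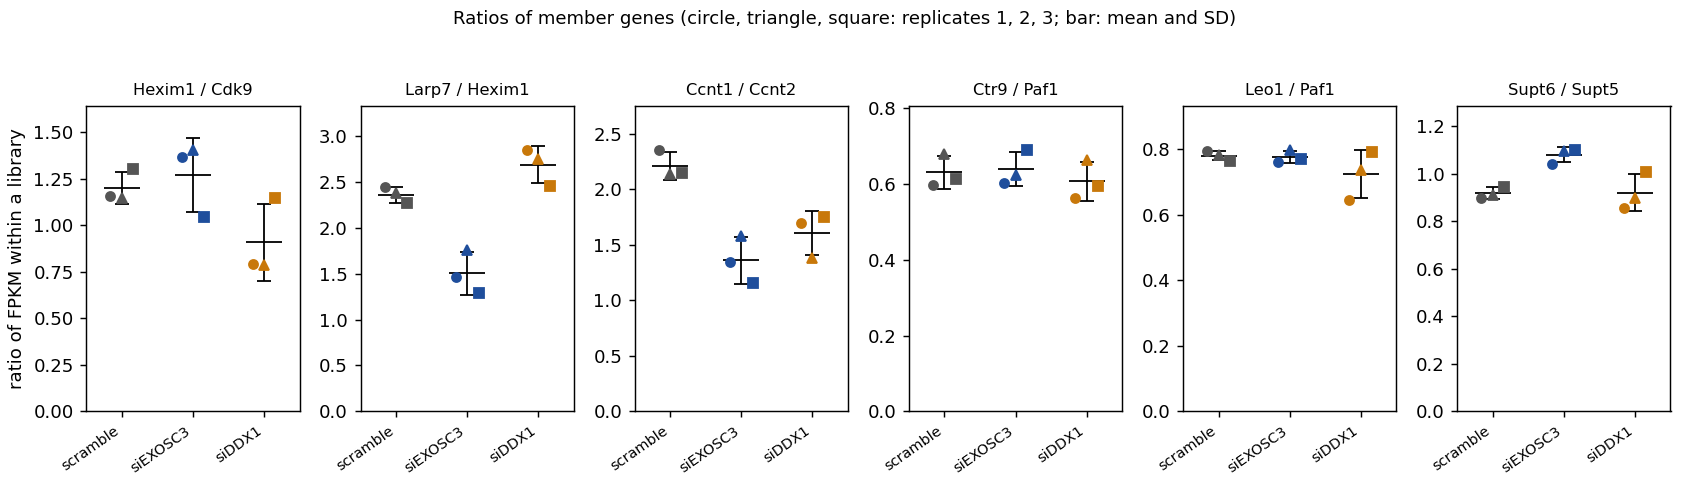
Ratio of the FPKM of gene pairs within each library (vertical axes, from 0) for scramble, siEXOSC3 and siDDX1, with symbols for replicates 1, 2 and 3 and bars for the mean and SD of 3 libraries. Ccnt1 to Ccnt2 is below scramble in all 6 knockdown libraries, and Larp7 to Hexim1 is below scramble in siEXOSC3 and above it in siDDX1 libraries.

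Supt6 and Supt5 encode the histone chaperone SPT6 and the large subunit of DSIF. Supt6, on chromosome 11 from 78020248 to 78059489 on the minus strand, was at 38.7, 40.5 and 38.7 FPKM in scramble and at 43.8, 43.0 and 48.8 FPKM in siEXOSC3 libraries. The siEXOSC3 libraries were all above scramble, and the log2 fold change of 0.19 (SE 0.0694) had a 95% confidence interval from 0.04 to 0.35 but did not pass over all genes (limma adjusted p = 0.0614), while it passed without siEXOSC3 replicate 2 (0.0320). Exons of Sdf2 on the opposite strand share 242 bases (3.41%) with Supt6, and Sdf2 fell by 0.30 on the log2 scale in siEXOSC3 cells (limma adjusted p = 0.0130). In siDDX1 cells Supt6 was at 42.1, 42.5 and 39.6 FPKM against 38.4, 40.2 and 38.3 FPKM, with overlapping groups and a log2 fold change of 0.09 (95% confidence interval -0.05 to 0.22). Supt5, on chromosome 7 from 29099917 to 29123738 on the minus strand, overlapped scramble in both knockdowns. Its values were 43.1, 44.5 and 40.9 FPKM in scramble and 42.0, 39.3 and 44.4 FPKM in siEXOSC3 libraries. In siDDX1 libraries they were 49.1, 47.4 and 39.3 FPKM, with replicates 1 and 2 above all scramble values (42.7, 44.2 and 40.5 FPKM) and replicate 3 below them. The log2 fold changes were -0.03 (95% confidence interval -0.19 to 0.13) and 0.09 (-0.12 to 0.29). Without siDDX1 replicate 3 the latter became 0.18, with limma adjusted p = 0.0490. The ratio of Supt6 to Supt5 was 0.899, 0.910 and 0.946 in scramble and 1.04, 1.10 and 1.10 in siEXOSC3 libraries, with no overlap and a log2 difference of 0.23 (two-sided exact permutation test, p = 0.1). In siDDX1 libraries it was 0.857, 0.898 and 1.01 and overlapped scramble.

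None of the 3 PAF1 complex members passed the test by limma in either knockdown, and none had an unadjusted p under 0.05, which 45.4% of all genes had in siEXOSC3 and 30.1% in siDDX1 cells. PAF1 gives the complex its name, CTR9 is its scaffold, and LEO1 forms a heterodimer with PAF1. Paf1 (chromosome 7, 29177970 to 29184407, plus strand) measured 37.1, 36.2 and 36.4 FPKM in scramble and 34.2, 36.1 and 31.5 FPKM in siEXOSC3 libraries. These siEXOSC3 values were all below scramble, but by a log2 fold change of only -0.11 (95% confidence interval -0.27 to 0.05, limma adjusted p = 0.249). Ctr9 (chromosome 7, 118172465 to 118199891, plus strand) and Leo1 (chromosome 9, 75289331 to 75314239, plus strand) overlapped scramble, with log2 fold changes of -0.09 (-0.25 to 0.07) and -0.12 (-0.29 to 0.06). In siDDX1 cells all 3 genes overlapped scramble, and the log2 fold changes were 0.03 (-0.10 to 0.16) for Paf1, -0.02 (-0.19 to 0.15) for Ctr9 and -0.08 (-0.23 to 0.07) for Leo1. The intervals for these genes in both knockdowns thus lie within 0.29 of 0. Of the other subunit genes, Cdc73, Rtf1 and Wdr61 had log2 fold changes of -0.12, -0.17 and -0.08 in siEXOSC3 and -0.04, -0.17 and 0.05 in siDDX1 cells, with limma adjusted p-values of 0.106 or more. Rtf1 lay below scramble in all 6 knockdown libraries, with unadjusted p-values of 0.0474 and 0.0238 by limma, and passed in siEXOSC3 cells without siEXOSC3 replicate 2 (adjusted p = 0.0377). Of all genes tested, 25.9% in siEXOSC3 and 17.8% in siDDX1 cells had groups that did not overlap with the knockdown below scramble. The same scramble libraries serve both comparisons. The ratio of Leo1 to Paf1 was 0.794, 0.783 and 0.766 in scramble and 0.762, 0.797 and 0.770 in siEXOSC3 libraries (two-sided exact permutation test, p = 0.8). In siDDX1 libraries it was 0.645, 0.736 and 0.791 (p = 0.3 by the same exact test), and the ratio of Ctr9 to Paf1 overlapped scramble in both knockdowns (p = 0.7 and p = 0.5 by the same exact test).

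**Figure D3:**
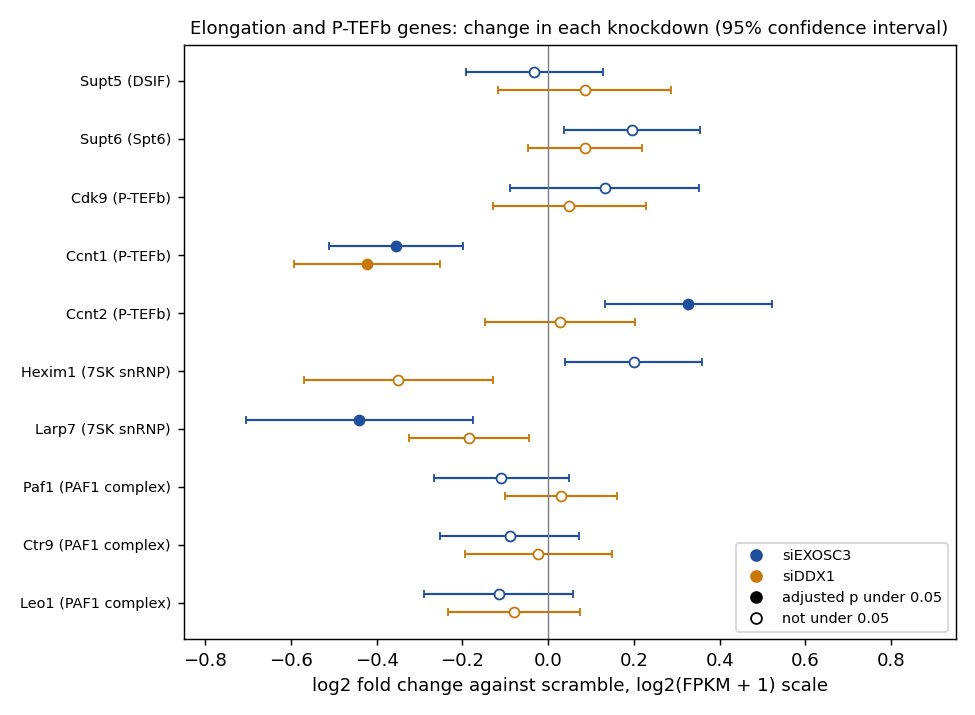
Log2 fold change against scramble on the log2(FPKM + 1) scale (horizontal axis) for the 10 genes in siEXOSC3 and siDDX1 cells, as points with 95% confidence intervals, filled where limma gave an adjusted p-value under 0.05. Ccnt1 is filled in both knockdowns at -0.36 and -0.42, Ccnt2 and Larp7 in siEXOSC3 only at 0.33 and -0.44, and whether the knockdowns differ was not tested.

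Counting over the members, the groups did not overlap for 6 genes in siEXOSC3 cells, 3 above scramble (Supt6, Ccnt2 and Hexim1) and 3 below it (Ccnt1, Larp7 and Paf1). Among all genes tested there, 49.7% had groups that did not overlap, with the knockdown above scramble for 23.8% and below it for 25.9%. In siDDX1 cells the groups were apart for 3 members, all below scramble (Ccnt1, Hexim1 and Larp7), where the share over all genes was 34.7%, and 17.8% with the knockdown below scramble. The replicates were not equally far from scramble. For Ccnt1, Ccnt2, Larp7 and Supt6 the siEXOSC3 library nearest to scramble was replicate 2, while for Hexim1 replicate 2 was the farthest. For Ccnt1, Hexim1 and Larp7 the siDDX1 library nearest to scramble was replicate 3. Exosc3 itself was at 6.84, 7.68 and 6.01 FPKM in siEXOSC3 replicates 1, 2 and 3, and Ddx1 at 28.0, 28.7 and 34.8 FPKM in the siDDX1 replicates, so that the same libraries retained the most of the targeted transcript. Its part in the differences between replicates was not tested.

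Other genes of the elongation machinery were taken from a list of 35 genes, of which 34 had a row and 31 passed the filter on low FPKM in both tables. Ell2, Ell3 and Eaf2 did not pass it. Rn7sk, the 7SK RNA itself, had no row under that symbol and so could not be analysed. In siEXOSC3 cells 2 of the 31 increased, 7 decreased and 22 did not pass the test, which is 29.0% called against 32.4% of all genes. Their median log2 fold change was -0.10. In siDDX1 cells 1 increased, 3 decreased and 27 did not pass (12.9%, against 10.6% of all genes), with a median of -0.040.

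Nelfe, Cdk12 and Setd2 passed in each of the comparisons, which share their scramble libraries, so that the calls are not independent. Nelfe, which encodes the RNA-binding subunit of NELF, was at 25.6, 26.6 and 29.9 FPKM in scramble and at 34.6, 31.5 and 34.6 FPKM in siEXOSC3 libraries, a log2 fold change of 0.29 (SE 0.0785, adjusted p = 0.0257 by limma). The siDDX1 libraries held it at 38.0, 34.6 and 33.3 FPKM, a log2 difference of 0.37 (SE 0.0787, adjusted p = 0.0259 by limma). Nelfe was thus above scramble in all 6 knockdown libraries. Of all genes tested, 23.8% in siEXOSC3 and 17% in siDDX1 cells had groups that did not overlap with the knockdown above scramble. Cdk12 encodes a kinase of the polymerase tail and fell from 37.5 ± 1.07 to 28.1 ± 1.27 FPKM in siEXOSC3 cells (SD, n = 3 each; log2 fold change -0.40, limma adjusted p = 0.00389). In siDDX1 cells it fell from 37.2 ± 1.05 to 30.4 ± 2.2 FPKM (SD, n = 3 each, log2 fold change -0.28, limma adjusted p = 0.0373). Setd2, the gene of the histone H3 lysine methyltransferase that follows the elongating polymerase, fell by 0.24 (limma adjusted p = 0.0422) and 0.30 (limma adjusted p = 0.0424) on the log2 scale. In siDDX1 cells each of these calls was kept in 1 of the 6 fits without one library, that without siDDX1 replicate 3, with highest adjusted p-values of 0.115, 0.149 and 0.134 for Nelfe, Cdk12 and Setd2. In siEXOSC3 cells Cdk12 kept its call in all 6 such fits. Nelfe lost it without scramble replicate 1 (adjusted p = 0.111), scramble replicate 2 (0.0847) or siEXOSC3 replicate 1 (0.0926), and Setd2 kept it only without siEXOSC3 replicate 2, with adjusted p-values up to 0.139 in the other fits. The call of Setd2 in siEXOSC3 cells was also lost with no filter on low FPKM (adjusted p = 0.0612), quantile normalization (0.0652), median centring (0.0609), no intensity trend (0.0545) or the replicate block (0.0644), and that of Nelfe with the block (0.0513). In siDDX1 cells no filter ended the calls of Nelfe (0.0536), Cdk12 (0.0598) and Setd2 (0.0685), no intensity trend those of Cdk12 (0.0553) and Setd2 (0.0553), and median centring that of Setd2 (0.0514).

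The remaining calls belonged to siEXOSC3 cells except that of Aff4. Mepce, which encodes the capping enzyme of the 7SK RNA and so belongs to the same particle as Larp7, was at 18.4, 19.0 and 19.2 FPKM in scramble and at 13.6, 14.4 and 13.02 FPKM in siEXOSC3 libraries. The log2 fold change was -0.44 (SE 0.0673, adjusted p = 0.00330 by limma), and the call held without any single library. In siDDX1 cells Mepce had a log2 fold change of -0.17 (limma adjusted p = 0.159), with all 3 libraries below scramble. Supt4a, the small DSIF subunit gene, fell by 0.35 on the log2 scale (limma adjusted p = 0.00966) while its partner Supt5 overlapped scramble. Iws1, whose product binds SPT6, fell by 0.36 (limma adjusted p = 0.00884). Ssrp1, a subunit gene of the histone chaperone FACT, changed by -0.26 (limma adjusted p = 0.0259), and Aff1, a scaffold gene of the super elongation complex, by -0.25 (limma adjusted p = 0.0399). Tcea2, of the TFIIS family that rescues arrested polymerase, rose by 0.48 (limma adjusted p = 0.0139) from a low level of 1.92 ± 0.177 FPKM (SD, n = 3), where the added pseudocount of 1 makes a fold change look smaller. The calls of Supt4a and Iws1 held without any single library, and that of Tcea2 was lost without scramble replicate 1 (adjusted p = 0.0640). The call of Aff1 held only without siEXOSC3 replicate 2, and that of Ssrp1 only without siEXOSC3 replicate 2 or 3, with adjusted p-values up to 0.146 and 0.105 in the other fits. Aff1 also lost its call with no filter (0.0600), quantile normalization (0.0534), median centring (0.05004), no intensity trend (0.0514) or the replicate block (0.0900), and Ssrp1 with the block (0.0533). In siDDX1 cells the log2 fold changes were 0.09 for Supt4a, -0.09 for Iws1, -0.03 for Ssrp1, -0.12 for Aff1 and 0.02 for Tcea2, with limma adjusted p-values of 0.411 or more. Without siDDX1 replicate 3, Supt4a passed there as increased (0.23, adjusted p = 0.0293) and Aff1 as decreased (-0.29, adjusted p = 0.00894). Aff4, the other scaffold gene, fell in siDDX1 cells from 76.9, 77.6 and 71.6 to 54.3, 57.2 and 52.7 FPKM, a log2 fold change of -0.45 (SE 0.0611, adjusted p = 0.00728 by limma) that held without any single library. In siEXOSC3 cells its log2 fold change was -0.10 (95% confidence interval -0.25 to 0.06).

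**Figure D4:**
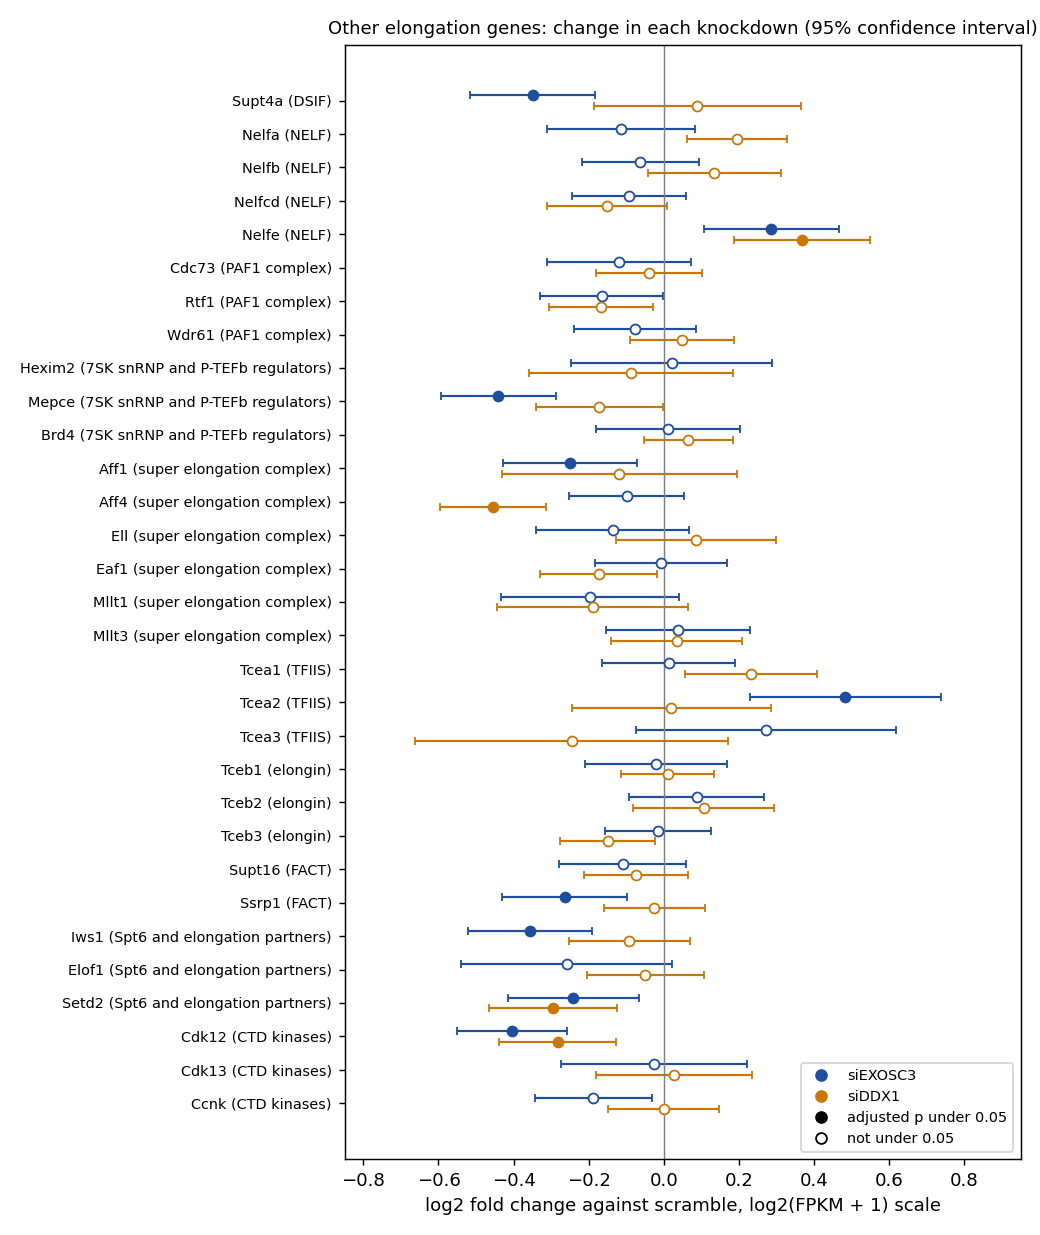
Log2 fold change against scramble on the log2(FPKM + 1) scale (horizontal axis) for the 31 other elongation genes that passed the filter, grouped by complex, in siEXOSC3 and siDDX1 cells, with 95% confidence intervals and filled points where the limma adjusted p-value was under 0.05. Nelfe is filled above 0 and Cdk12 and Setd2 below 0 in both knockdowns, and Aff4 is filled in siDDX1 alone at -0.45.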

How the data were processed

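RNA-seq of 9 libraries (scramble, siEXOSC3 and siDDX1, n = 3 each) was taken up from the FPKM values that the authors deposited in 2 tables, 1 per knockdown, each with the 3 scramble libraries. Per the labels and the paper's methods, libraries were nondirectional and rRNA-depleted, reads were aligned to mm9 with TopHat2 version 2.1.0, sorted with SAMtools, and passed to Cuffdiff version 2.2.1. The gene annotation and library normalization are not given in the sources used here. Genes with a mean of at least 1 FPKM over the 6 libraries of a table were tested on log2(FPKM + 1) with limma version 3.58.1 (R version 4.3.3, two-sided, moderated with a trend on mean level). P-values were adjusted by Benjamini-Hochberg over all genes tested, with a threshold of 0.05. Count models were not used, as FPKM are no counts. Ratios within libraries were compared by exact permutation.

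Samples were grouped by their titles. Replicates came from separately seeded plates. The members, the list of other elongation genes, the ratios and the markers were chosen with earlier results of these data known. The genes named are the 10 members, the depleted genes, and each gene of the list past the threshold in at least 1 knockdown (up to 12). Cdc73, Rtf1 and Wdr61, as PAF1 complex subunits, and the genes overlapping or next to a member were added after the values were seen. Alternatives were no filter, a pseudocount of 0.1, a minimum of 5 FPKM, quantile normalization, median centring, no intensity trend, a replicate block, a threshold of 0.01 and leaving out each library. The fit was tested on simulated data. Positions came from GENCODE vM1 (NCBIM37, the sequence of mm9) and promoters from RefSeq (GRCm38.p6), where 9 of 10 members matched. Figures were drawn with matplotlib version 3.10.9.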

Additional observations from a re-analysis of the deposited data

Results flagged for a closer look

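Hexim1 was picked out because all 3 siEXOSC3 libraries lay above all scramble libraries and all 3 siDDX1 libraries below them, with log2 fold changes of 0.20 and -0.35. The ratio of Larp7 to Hexim1 was picked out in the same way, with log2 differences of -0.66 in siEXOSC3 and 0.18 in siDDX1 cells. The ratio includes Hexim1 and is not a separate finding. The difference between the knockdowns was not tested, and both are set against the same scramble libraries. Groups of 3 libraries are too small for a check of single outlying values.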

How the results depend on the processing

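With n = 3 per group and read numbers not known, small changes in these genes could not be resolved. Over the fits without one library, the increased genes of siEXOSC3 ranged from 1027 to 2379 and the decreased genes from 583 to 2508, and those of siDDX1 from 95 to 1818 and from 58 to 1706. In siEXOSC3 cells 0 to 2 members increased and 1 to 2 decreased, and in siDDX1 cells these were 0 to 1 and 0 to 3. For the other elongation genes the ranges were 0 to 2 and 4 to 10, and 0 to 4 and 1 to 6. In the main fits the counts of all genes were 1877 and 1767 in siEXOSC3 and 623 and 559 in siDDX1 cells. A threshold of 0.01 gave 869 and 480 genes in siEXOSC3 and 100 and 83 in siDDX1 cells, with 0 and 1 members in siEXOSC3, 0 decreased members in siDDX1, 0 and 4 other elongation genes in siEXOSC3, and 0 and 1 in siDDX1 cells. Without the filter 387 and 330 genes passed in siDDX1 cells, 1 member decreased in siEXOSC3 cells, and 0 and 1 other elongation genes passed in siDDX1 cells. With quantile normalization or median centring 2 members increased in siEXOSC3 cells, and with median centring 2 other elongation genes increased in siDDX1 cells. A mean of at least 5 FPKM left 1 other elongation gene increased in siEXOSC3 cells, where Tcea2 was not tested, and with no intensity trend 1 decreased in siDDX1 cells. Of the 7 that decreased in siEXOSC3 cells, Aff1 and Setd2 were lost, leaving 5, under no filter, quantile normalization, median centring or no intensity trend. The cause of these moves was not tested.

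The replicate numbers were not taken to pair the samples in the main fits, and 3 libraries per group cannot show whether they do. The correlations of same-numbered deviations were 0.035, -0.31 and -0.13 in the siEXOSC3 table and -0.012, 0.38 and 0.37 in the siDDX1 table. Not every library correlated best with its own number, but replicates 2 and 3 of the siDDX1 table did. The replicate block gave 1390 increased and 1059 decreased genes in siEXOSC3 and 1085 and 808 in siDDX1 cells. Of the other elongation genes, 1 was higher and 4 were lower in siEXOSC3 cells with the replicate block, and 2 were higher in siDDX1 cells. With the replicate block 2 members decreased in siDDX1 cells, as Hexim1 passed there (adjusted p = 0.0211).

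Changes of sign were found only for values near 0, among the named genes and ratios under the alternatives run. Ddx1 in siEXOSC3 cells was at -0.0058 with quantile normalization and Ctr9 in siDDX1 cells at 0.0029 with median centring. Without one library the log2 fold changes spanned -0.074 to 0.012 for Supt5 and -0.045 to 0.040 for Ddx1 in siEXOSC3 cells. In siDDX1 cells they spanned -0.0027 to 0.12 for Cdk9, -0.023 to 0.088 for Ccnt2, -0.077 to 0.025 for Ctr9, -0.030 to 0.23 for Supt4a and -0.035 to 0.12 for Tcea2. The log2 ratios spanned -0.0072 to 0.21 (Hexim1 to Cdk9), -0.038 to 0.073 (Ctr9 to Paf1) and -0.027 to 0.0054 (Leo1 to Paf1) in siEXOSC3 cells, and -0.12 to 5.6e-04 (Ctr9 to Paf1) and -0.066 to 0.050 (Supt6 to Supt5) in siDDX1 cells.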
